A study of Rattus norvegicus with 6 samples.

Results

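The genes described here encode enzymes and a transporter that make and export glucose, phosphorylate fructose, and handle inositol and guanidinoacetate in the proximal tubule of the kidney. All probe sets were taken that the array annotation maps to exactly 1 of 9 named genes (Pck1, Pck2, G6pc, Fbp1, Khk, Pc, Slc2a2, Miox and Gatm). The rule found 10 probe sets of 8 genes, among 31042 probe sets of 14217 genes. G6pc, listed by its current symbol G6pc1, has no probe set to itself, because the 4 that list it also list Psme3 and Aoc3. Those 4 are described separately and are not assigned to a gene.

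Kidney RNA of 3 males of the congenic strain S.LEW(10)x12x2x3x5 and 3 males of the Dahl salt-sensitive (S) control strain was hybridised to Affymetrix arrays, each rat on its own. S rats are inbred and prone to salt-sensitive hypertension and proteinuria. The congenic strain carries a piece of Lewis (LEW) chromosome 10 on the S background. Born on the same date, weaned at 30 days and caged with 1 rat of each strain together, they were fed 0.3% salt until tissue was taken at 53 days. The whole kidney was measured, so every value averages over all its cell types.

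The proximal tubule, like the liver, builds glucose from lactate, glutamine and other precursors. Pyruvate carboxylase (Pc) and phosphoenolpyruvate carboxykinase (cytosolic Pck1, mitochondrial Pck2) open the route, fructose-1,6-bisphosphatase (Fbp1) and glucose-6-phosphatase (G6pc1) complete it, and the transporter GLUT2 (Slc2a2) lets glucose leave across the basolateral membrane. Ketohexokinase (Khk) phosphorylates fructose in the same cells. Miox starts the breakdown of myo-inositol, and Gatm makes guanidinoacetate, the precursor of creatine.

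The promoters of Slc2a2, Pck1 and Khk are shown because Slc2a2 was the gene that passed the test, Pck1 is the classical hormone-controlled gene of the route, and Khk was the member that lay lower in every congenic rat. Each sequence is the 250 bases before the gene's start in the RefSeq promoter table (build GRCr8), read 5′ to 3′ on the gene's strand. The windows are chr2:113540120-113540369 on the plus strand for Slc2a2, chr3:182348322-182348571 on the plus strand for Pck1 and chr6:31175482-31175731 on the minus strand for Khk. Capitals mark the letters of any of the 4 searched motifs.
Slc2a2: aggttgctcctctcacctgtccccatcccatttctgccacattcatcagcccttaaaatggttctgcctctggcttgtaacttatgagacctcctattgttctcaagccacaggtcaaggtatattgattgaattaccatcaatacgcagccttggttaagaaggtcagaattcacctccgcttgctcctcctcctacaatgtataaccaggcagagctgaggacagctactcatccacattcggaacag
Pck1: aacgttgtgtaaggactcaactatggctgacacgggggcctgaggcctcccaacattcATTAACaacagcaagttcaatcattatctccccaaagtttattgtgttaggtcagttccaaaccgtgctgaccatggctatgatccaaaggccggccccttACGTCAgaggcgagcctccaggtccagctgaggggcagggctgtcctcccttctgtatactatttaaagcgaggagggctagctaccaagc
Khk: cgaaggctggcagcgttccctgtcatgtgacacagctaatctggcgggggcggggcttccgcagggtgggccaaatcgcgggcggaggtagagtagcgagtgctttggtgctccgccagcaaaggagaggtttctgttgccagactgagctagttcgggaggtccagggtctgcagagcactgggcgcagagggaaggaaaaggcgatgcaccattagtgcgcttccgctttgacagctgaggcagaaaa

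The motifs searched on both strands were the core of the cAMP response element (TGACGT), an HNF1 core (GTTAAT), an HNF4 core (CAAAGNNCA) and an insulin response sequence (TGTTTTG). Among 33469 RefSeq promoters of the same length these letters occurred in 6.95%, 6.45%, 5.22% and 5.46%. The Pck1 window held the cAMP response core as ACGTCA, 91 to 86 bases before the start, and the HNF1 core as ATTAAC, 192 to 187 bases before it. The windows of Slc2a2 and Khk held none of the 4. Of 8 member promoters in the table (Pc is not listed), Miox held 1 HNF1 core, and G6pc1 held 1 each of the HNF1, HNF4 and insulin response letters. No match overlapped another.

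The arrays had median log2 intensities of 7.47 to 7.50. The leading principal component of the arrays, which held 67% of the variance, placed S rat 2 at -40.1, apart from S rat 3 at -18.0, S rat 1 at -1.69 and the congenic rats at 15.6 to 22.3. The 3′ minus 5′ difference of the beta-actin and Gapdh control probe sets, which widens when RNA is broken, was 1.26, 1.01 and 1.08 in congenic rats 1 to 3 and 1.56, 2.10 and 1.70 in S rats 1 to 3 (log2). The groups did not overlap, and the means differed by -0.67 (two-sided exact permutation test, p = 0.1, which is the lowest value possible with 3 rats in each group). S rat 2 had the widest difference. For this reason, results are also given with this difference as a term in the model (the RNA quality term) and without S rat 2. Because its values part the strains completely, the term can widen the error of a strain difference.

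Of the 10 member probe sets 1 passed an adjusted p of 0.05 (limma), that of Slc2a2, and it was higher in congenic rats. Over all probe sets the share called was 6.00%, made up of 3.47% higher and 2.53% lower. Groups did not overlap in 3 of the 10, namely Slc2a2 and Fbp1, higher in every congenic rat, and Khk, lower in every congenic rat. Over all probe sets the share without overlap was 31.2%, close to the share among the members, with 12.7% higher and 18.4% lower in every congenic rat. The median log2 change was 0.16 over the member probe sets and -0.02 over all probe sets. No measured member lies on chromosome 10 in the GRCr8 gene table.

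**Figure D1:**
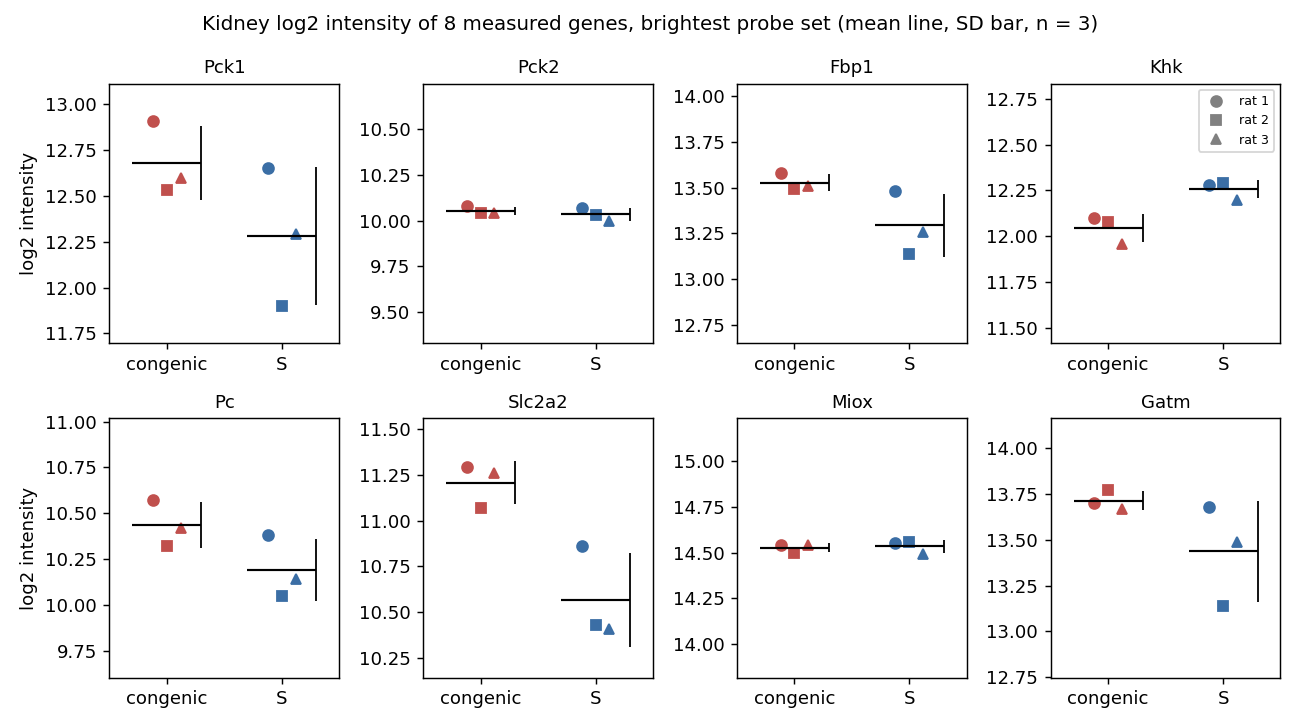
Log2 intensity of the brightest probe set of each of the 8 measured genes in 3 congenic rats (red, left) and 3 S rats (blue, right), with the group mean as a line and the SD as a bar. Every panel spans the same number of log2 units, so distances can be compared between panels but positions cannot. Slc2a2, Fbp1 and Khk are the 3 genes whose groups do not overlap, while Miox and Pck2 lie flat.

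The glucose exporter gene Slc2a2 was the member with the largest change. Its log2 intensity was 11.29, 11.07 and 11.26 in congenic rats and 10.86, 10.43 and 10.41 in S rats. Every congenic rat lay above every S rat, and S rat 1 was the nearest to the congenic group. The log2 change was 0.64 ± 0.12 (SE), which is 1.56-fold with a 95% interval of 1.28 to 1.90 (limma, adjusted p = 0.0321). In whole kidney, more cells that carry a transcript and more transcript per cell cannot be told apart, and this holds for each gene below.

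The call of Slc2a2 was lost when any 1 rat other than S rat 1 was left out. Leaving out each rat in turn, the log2 change stayed between 0.56 and 0.79. It was called only without S rat 1 (adjusted p = 0.00134). Leaving out S rat 2 gave an adjusted p of 0.0571 and leaving out S rat 3 one of 0.106, with 0.0801, 0.0989 and 0.141 without congenic rats 1, 2 and 3 (limma). The unadjusted p of Slc2a2 in these fits ran from 0.00132 to 0.00424. Calls over all probe sets also fell in the same fits, from 1862 with all rats to 968 or fewer. A change of 0.40 ± 0.25 (SE) remained under the RNA quality term, and it did not pass (adjusted p = 0.823).

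Slc5a2 encodes SGLT2, the apical transporter that brings filtered glucose into the cell that GLUT2 lets it out of. Its log2 intensity was 11.02, 10.35 and 10.46 in congenic rats and 9.71, 8.21 and 8.89 in S rats. The strains did not overlap here either, and S rat 1 again lay nearest to the congenic rats. The log2 change of Slc5a2 was 1.67 ± 0.33 (SE, 3.18-fold, limma, adjusted p = 0.0333). Without S rat 2 it came to 1.31 (adjusted p = 0.0377), and the RNA quality term left 0.60 ± 0.60 (SE, adjusted p = 0.916). Of the 6 fits that leave out 1 rat, 2 called it.

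The enzymes that open gluconeogenesis had higher congenic means for Pck1 and Pc, and neither passed. Pck1 was at 12.91, 12.53 and 12.60 in congenic rats and 12.65, 11.90 and 12.29 in S rats. S rat 1 lay above congenic rats 2 and 3, so the groups overlapped, and S rat 2 was the lowest of all. The log2 change of Pck1 was 0.40 ± 0.18 (SE, limma, adjusted p = 0.198), with a 95% interval of -0.0018 to 0.81. It was 0.22 without S rat 2, 0.59 without S rat 1, where it was called (adjusted p = 0.0272), and -0.12 with the RNA quality term.

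Pc, which turns pyruvate into oxaloacetate, was at 10.57, 10.32 and 10.42 in congenic rats and 10.38, 10.05 and 10.14 in S rats. Only S rat 1 reached into the congenic range. The log2 change was 0.25 ± 0.10 (SE, limma, adjusted p = 0.18), and it was 0.18 without S rat 2, 0.34 without S rat 1 (adjusted p = 0.0398) and 0.072 with the RNA quality term.

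Pck2, the mitochondrial form of the carboxykinase, differed little between strains at both of its probe sets. The brighter was at 10.08, 10.04 and 10.04 in congenic rats and 10.07, 10.03 and 10.00 in S rats. The log2 change there was 0.023, and the 95% interval of -0.12 to 0.16 bounds any difference. The dimmer probe set, at 8.36 in congenic rats and 8.34 in S rats on average, had a log2 change of 0.017 (-0.17 to 0.20). Whether the changes of Pck1 and Pck2 differ from each other was not tested.

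Fbp1 acts late in the route, on fructose-1,6-bisphosphate. It was at 13.58, 13.49 and 13.51 in congenic rats and 13.48, 13.14 and 13.26 in S rats. The strains did not overlap, but S rat 1 and congenic rat 2 nearly touched. The log2 change was 0.24 ± 0.093 (SE), or 1.18-fold (95% interval 1.02 to 1.36), and missed the threshold (limma, adjusted p = 0.155). It was 0.16 without S rat 2, 0.33 without S rat 1 (adjusted p = 0.0231) and -0.035 with the RNA quality term.

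**Figure D2:**
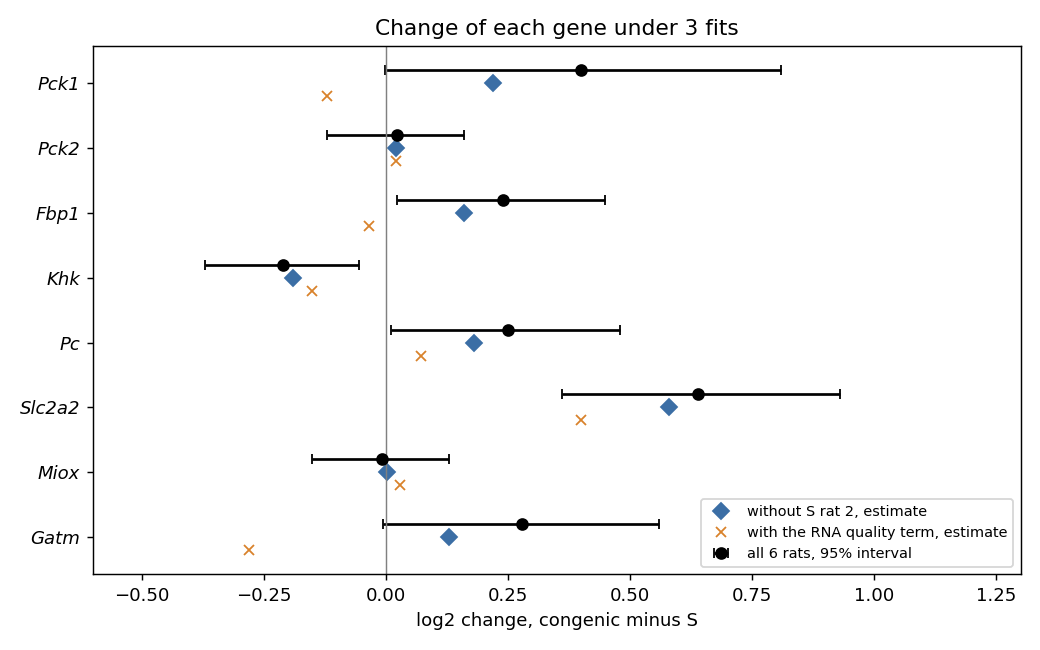
Log2 change, congenic minus S, of the brightest probe set of each gene. Black points with bars are the estimates from all 6 rats with 95% intervals, blue diamonds the estimates without S rat 2 and orange crosses those with the RNA quality term. Slc2a2, Pc and Pck2 stay right of 0 and Khk left of it under all 3 fits, whereas Pck1, Fbp1 and Gatm cross to the left with the RNA quality term. Pck2 and Miox lie near 0, and Miox crosses it to the right under both other fits.

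The 4 probe sets that list G6pc1 together with Psme3 and Aoc3 gave unlike changes. G6pc1 encodes the last enzyme of gluconeogenesis, Psme3 a proteasome activator subunit and Aoc3 a vascular amine oxidase. G6pc1 lies on chromosome 10 in the GRCr8 table; the limits of the congenic piece were not placed here. Numbered by brightness, the second is built on a transcript that the RefSeq table gives to G6pc1.

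That second shared probe set was at 11.14, 10.67 and 10.82 in congenic rats and 10.35, 9.60 and 9.80 in S rats, with no overlap. The log2 change came to 0.96 ± 0.19 (SE, 1.95-fold, limma, adjusted p = 0.0328). The fourth was at 9.66, 9.11 and 9.41 in congenic rats and 8.65, 7.23 and 7.65 in S rats, again with no overlap. Its log2 change was 1.55 ± 0.32 (SE, 2.92-fold, limma, adjusted p = 0.0341). In both, S rat 2 was the lowest and S rat 1 the highest of the S rats.

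The other shared probe sets did not pass. The third was at 9.31, 9.41 and 9.42 in congenic rats and 9.22, 8.96 and 8.79 in S rats, a log2 change of 0.39 (limma, adjusted p = 0.0667). The first was at 10.62, 10.63 and 10.61 in congenic rats and 10.67, 10.58 and 10.46 in S rats, a log2 change of 0.048 (limma, adjusted p = 0.742). The second and the fourth with the RNA quality term both stood at 0.53, and neither passed (adjusted p = 0.86 and adjusted p = 0.926). Without S rat 2 they stood at 0.81 (adjusted p = 0.0525) and 1.24 (adjusted p = 0.0491). Without S rat 3, or without any 1 of the congenic rats, neither passed, with adjusted p between 0.0791 and 0.142.

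**Figure D3:**
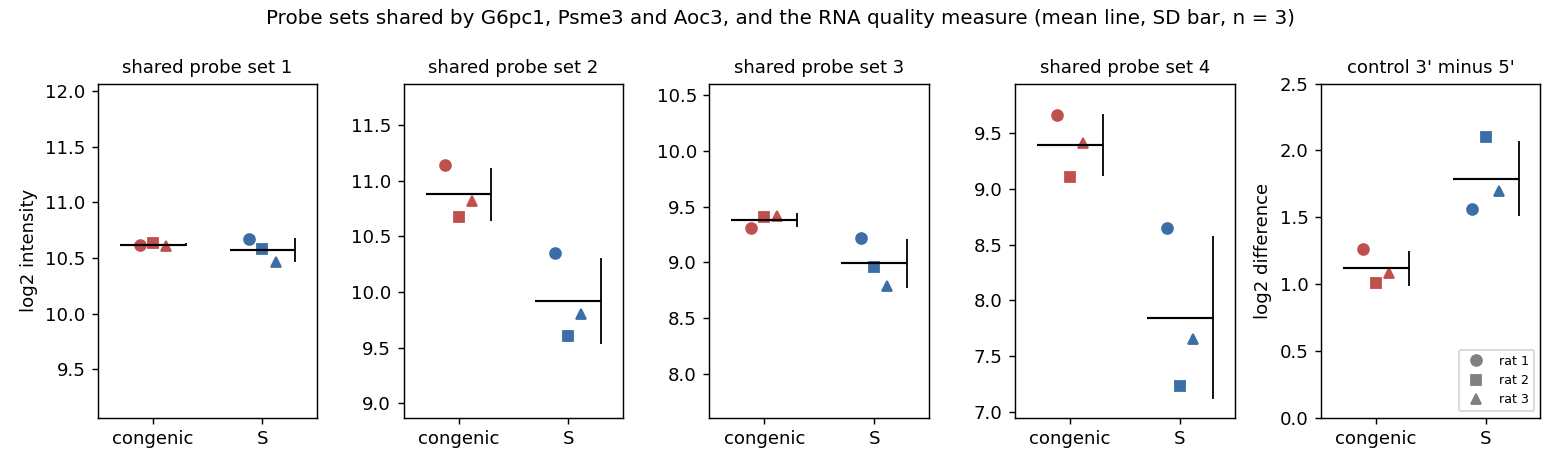
The 4 left panels show log2 intensity of the probe sets shared by G6pc1, Psme3 and Aoc3, numbered by brightness, in congenic (red) and S rats (blue), with mean and SD (n = 3). The right panel shows, for the same rats, the 3′ minus 5′ value of the control probe sets (log2); S rat 2 has the widest difference, 2.10, and the lowest values at shared probe sets 2 and 4.

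Khk was the only measured gene of the 8 that lay lower in every congenic rat. It was at 12.10, 12.08 and 11.96 in congenic rats and 12.28, 12.29 and 12.20 in S rats. All congenic rats lay below all S rats, and S rat 2 did not stand apart. The log2 change was -0.21 ± 0.069 (SE), or 0.864-fold (95% interval 0.775 to 0.963), and missed the threshold (limma, adjusted p = 0.1). It lay between -0.24 and -0.17 when any 1 rat was left out, and was -0.15 with the RNA quality term. With an intensity trend in limma it passed (adjusted p = 0.0442).

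Miox and Gatm, the inositol and creatine enzymes, showed no called change. Miox was at 14.54, 14.50 and 14.54 in congenic rats and 14.55, 14.56 and 14.49 in S rats. Only 12 probe sets were brighter on average. The Miox log2 change was -0.0085, with a 95% interval of -0.15 to 0.13. Gatm was at 13.70, 13.77 and 13.67 in congenic rats and 13.68, 13.14 and 13.49 in S rats. S rat 1 lay within the congenic range and S rat 2 far below it. The log2 change of Gatm was 0.28 ± 0.12 (SE, limma, adjusted p = 0.205), 0.13 without S rat 2, 0.40 without S rat 1 (adjusted p = 0.0396) and -0.28 with the RNA quality term. The second Gatm probe set averaged 5.89 in congenic rats and 5.81 in S rats, near the lower quartile of the arrays (5.88 to 5.96), and had a log2 change of 0.078.

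Among the 8 measured genes, 4 (Pck1, Fbp1, Pc and Gatm) had S rat 2 as the lowest of all 6 rats. In 6 of them S rat 1 was the highest of the S rats. The rat with the lowest of these values, S rat 2, was the one with the widest 3′ minus 5′ difference. It also stood apart over the whole arrays, as given above. The shares of all genes with S rat 2 lowest or S rat 1 highest were not computed. These counts, and those of S rat 2 below, are therefore not read as particular to the genes named. The part of RNA quality in the strain differences of these genes was not tested beyond the model term above.

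Genes around these members were read from 7 lists, which hold 112 distinct measured genes. Of these, 4 were higher, 8 were lower and 100 did not pass (limma, brightest probe set). The share called was 10.7%, against 4.79% of all 14217 genes (2.12% higher and 2.67% lower), and the median log2 change was -0.019, against -0.035 over all genes. The lists were put together with earlier results of these data known. With the RNA quality term 0 of the 112 passed in limma, with 12 below an unadjusted p of 0.05. Leaving out S rat 2 gave 7 calls, S rat 1 gave 25, congenic rat 1 gave 2, and S rat 3, congenic rat 2 or congenic rat 3 gave 0 (30, 28 and 29 below an unadjusted p of 0.05).

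Of the 12 genes called, 5 also passed without S rat 2 (Slc16a1, Slc5a2, Slc5a3, Rgn and Agmat) and 7 did not. The dimmer probe sets of these genes did not always follow the brightest. Of 75 dimmer probe sets of 46 of the genes, 7 were higher and 2 lower (limma), so that 9 of 75 were called, against 6.00% of all probe sets. S rat 2 was the lowest of all 6 rats in each of the 7 that were higher. Their groups did not overlap, so the lowest rat was bound to be an S rat. The share over all probe sets called higher was not computed. Without S rat 2, 5 of the 9 passed, and with the RNA quality term 0 did (1 below an unadjusted p of 0.05).

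**Figure D4:**
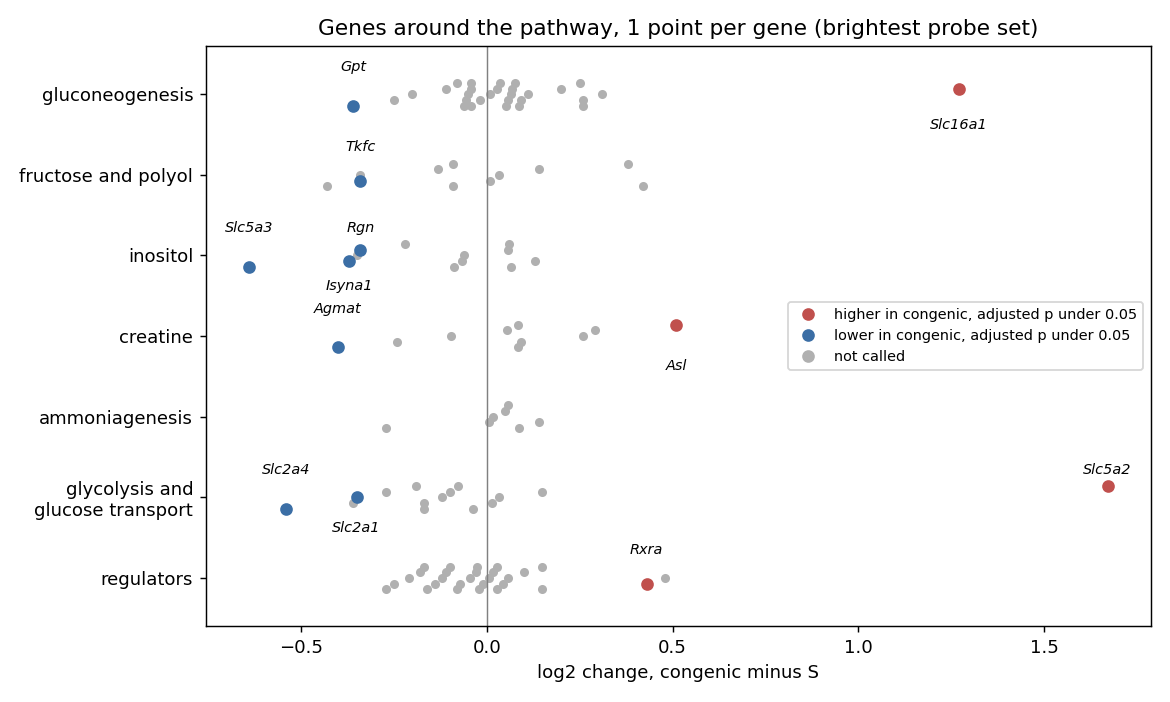
Log2 change, congenic minus S, of each measured gene of the 7 surrounding lists, 1 point per gene. Red points passed as higher and blue points as lower in congenic rats, grey points did not pass. Slc5a2 (1.67) and Slc16a1 (1.27) lie farthest to the right and Slc5a3 (-0.64) farthest to the left.

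In the list of 29 other genes of gluconeogenesis and precursor supply, 1 rose, 1 fell and 27 did not pass. Slc16a1, the monocarboxylate transporter MCT1 that carries lactate and pyruvate, was at 9.16, 8.96 and 9.28 in congenic rats and 8.22, 7.64 and 7.73 in S rats. The strains lay well apart, with a log2 change of 1.27 ± 0.15 (SE, 2.41-fold, limma, adjusted p = 0.0157). It was 1.16 without S rat 2 (adjusted p = 0.0177) and 0.84 with the RNA quality term. A dim second probe set of Slc16a1, at 5.79 in congenic rats and 5.82 in S rats, did not pass (log2 change -0.034). Gpt, an alanine aminotransferase, was at 8.45, 8.35 and 8.42 in congenic rats and 8.62, 8.90 and 8.78 in S rats. It fell by 0.36 (adjusted p = 0.0441), and stood at -0.29 without S rat 2 (adjusted p = 0.0832) and at -0.058 with the RNA quality term. Slc37a4, which carries glucose-6-phosphate to G6pc1 in the endoplasmic reticulum, had a log2 change of 0.26 (adjusted p = 0.0878), and the kinase gene Pdk4, whose product restrains pyruvate dehydrogenase, one of -0.25 (adjusted p = 0.0811).

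Of 11 measured genes of fructose and polyol handling 1 fell and 10 did not pass. Tkfc, the triose kinase that acts after ketohexokinase and aldolase, was at 11.65, 11.60 and 11.63 in congenic rats and 11.91, 12.04 and 11.92 in S rats. The strains did not overlap, and the log2 change was -0.34 ± 0.066 (SE, limma, adjusted p = 0.0326). It was -0.29 without S rat 2 (adjusted p = 0.056) and -0.17 with the RNA quality term. Slc2a5, the fructose transporter GLUT5, was at 10.40, 10.40 and 10.22 in congenic rats and 10.57, 10.80 and 10.67 in S rats, a log2 change of -0.34 (adjusted p = 0.0522) that shrank to -0.092 with the RNA quality term. Glyctk, glycerate kinase, was at 10.35, 10.30 and 10.38 in congenic rats and 10.22, 9.70 and 9.97 in S rats, a log2 change of 0.38 (adjusted p = 0.0951) that became -0.11 with the RNA quality term. A dimmer Glyctk probe set went the opposite way and fell by 0.32 (adjusted p = 0.0474). Over the whole list 5 of the 11 genes lay lower in every congenic rat and 2 higher, where the shares over all genes were 22.5% and 10.9%. Sord, sorbitol dehydrogenase, stood at 0.14 (adjusted p = 0.418). Aldh1a1, an aldehyde dehydrogenase, stood at 0.42 (adjusted p = 0.0624).

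Around Miox, 3 of 12 measured inositol and glucuronate genes fell and 9 did not pass. Slc5a3, the sodium-coupled myo-inositol transporter, was at 10.62, 10.62 and 10.58 in congenic rats and 11.20, 11.23 and 11.29 in S rats. The spread within each strain was far smaller than the gap between them. The log2 change was -0.64 ± 0.062 (SE, 0.643-fold, limma, adjusted p = 0.00918). It lay between -0.66 and -0.61 when any 1 rat was left out, with 3 of these 6 fits calling it, and was -0.63 ± 0.13 (SE) with the RNA quality term (adjusted p = 0.453). A dim second probe set of Slc5a3 averaged 5.09 in congenic rats and 5.19 in S rats.

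Rgn, which encodes a gluconolactonase, was at 13.15, 13.16 and 13.06 in congenic rats and 13.45, 13.45 and 13.50 in S rats. It fell by 0.34 (limma, adjusted p = 0.0292) and stood at -0.35 both with the RNA quality term and without S rat 2. Isyna1, the synthase that makes inositol phosphate from glucose-6-phosphate, was at 10.27, 9.97 and 10.11 in congenic rats and 10.43, 10.55 and 10.48 in S rats. Its log2 change was -0.37 (adjusted p = 0.0452), and it was -0.34 without S rat 2 (adjusted p = 0.0922) and -0.12 with the RNA quality term. Slc2a13, a proton-coupled inositol carrier, stood at -0.35 (adjusted p = 0.0918) and Slc5a11, another sodium-coupled one, at -0.22 (adjusted p = 0.345). The median over the list was -0.077.

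Around Gatm, 1 of 10 measured genes of creatine and arginine handling rose, 1 fell and 8 did not pass. Asl, argininosuccinate lyase, which releases the arginine that Gatm uses, was at 11.12, 10.88 and 10.92 in congenic rats and 10.74, 10.37 and 10.28 in S rats. Its log2 change was 0.51 ± 0.12 (SE, limma, adjusted p = 0.0491). The call of Asl was lost without S rat 2, at 0.46 (adjusted p = 0.103), and with the RNA quality term, at 0.36 (adjusted p = 0.863). Agmat, an agmatinase-family gene, was at 11.39, 11.37 and 11.28 in congenic rats and 11.69, 11.83 and 11.70 in S rats. It fell by 0.40 (adjusted p = 0.0256), and by 0.35 without S rat 2 (adjusted p = 0.0404). Agmat stood at -0.24 under the RNA quality term (adjusted p = 0.774). Slc6a8, the creatine transporter, stood at 0.26 at its brightest probe set (adjusted p = 0.0734), and a dimmer one, at 11.12 in congenic rats and 10.46 in S rats, rose by 0.66 (adjusted p = 0.0179). Arg2, a mitochondrial arginase, stood at -0.24 (adjusted p = 0.0579).

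At the brightest probe set, none of 7 measured genes of glutamine breakdown and the citric acid cycle passed. Slc38a3, a glutamine transporter, was at 10.32, 10.38 and 10.47 in congenic rats and 10.79, 10.48 and 10.71 in S rats, a log2 change of -0.27 (limma, adjusted p = 0.107). Here S rat 2 was the S rat nearest to the congenic group, and without it the change was -0.36 and passed (adjusted p = 0.0467). Glud1, glutamate dehydrogenase, stood at 0.14 (adjusted p = 0.371). Its other probe set, nearly as bright, averaged 12.62 in congenic rats and 12.82 in S rats and lay lower in every congenic rat (-0.20, adjusted p = 0.099). Cs, citrate synthase, stood at 0.017 at its brightest probe set. A dimmer Cs probe set, at 9.95 in congenic rats and 9.48 in S rats on average, rose by 0.47 (adjusted p = 0.0328), and another stood at 0.85 (adjusted p = 0.0542). Under the RNA quality term they stood at 0.11 and -0.24.

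Of 15 measured genes of glycolysis and other glucose transport 1 rose, 2 fell and 12 did not pass. The gene that rose was Slc5a2, described above. Slc2a1, the widely expressed transporter GLUT1, was at 10.19, 10.10 and 10.07 in congenic rats and 10.39, 10.60 and 10.42 in S rats. Its log2 change was -0.35 ± 0.078 (SE, limma, adjusted p = 0.0412), with -0.29 without S rat 2 (adjusted p = 0.0731) and -0.076 with the RNA quality term. Slc2a4, the insulin-sensitive transporter GLUT4 of fat and muscle, was at 7.79, 7.73 and 7.49 in congenic rats and 8.01, 8.31 and 8.29 in S rats. At this probe set it fell by 0.54 (adjusted p = 0.034), and it stood at -0.48 without S rat 2 (adjusted p = 0.0648) and at -0.23 with the RNA quality term (adjusted p = 0.892). The other Slc2a4 probe set, at 7.38 in congenic rats and 7.28 in S rats on average, stood at 0.092 (adjusted p = 0.573). The summed intensity of 6 adipocyte markers ran from 2380 to 3210 in congenic rats and from 3410 to 5120 in S rats. Of the 6, 1 was called lower, where the share over all genes was 2.67%. The part of these markers in the lower value of Slc2a4 was not tested. Pklr, the liver and kidney pyruvate kinase that opposes the route of Pck1, stood at -0.36 at its brightest probe set (adjusted p = 0.0514) and fell by 0.40 at a dimmer one (adjusted p = 0.0333). Pfkm, a phosphofructokinase, stood at 0.015 at its brightest probe set (limma, adjusted p = 0.937). A dimmer Pfkm probe set rose by 0.67 (adjusted p = 0.0303) and stood at 0.24 with the RNA quality term (adjusted p = 0.895). Another dimmer one stood at -0.037 (adjusted p = 0.865). Pfkfb2 stood at -0.17 (adjusted p = 0.144).

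Among 28 measured regulators of gluconeogenic genes, Rxra rose and 27 did not pass at the brightest probe set. Rxra, a nuclear receptor that pairs with others, was at 7.92, 8.06 and 7.98 in congenic rats and 7.55, 7.37 and 7.76 in S rats. Its log2 change was 0.43 ± 0.10 (SE, limma, adjusted p = 0.0469), with 0.33 without S rat 2 (adjusted p = 0.0806) and 0.10 with the RNA quality term. Hnf4a, a nuclear receptor of liver and proximal tubule, stood at -0.16 at its brightest probe set (adjusted p = 0.183), and a dimmer one rose by 0.58 (adjusted p = 0.048). Of the kinase genes of insulin signalling, Akt1 and Akt2 stood at -0.0094 and 0.029 at the brightest probe set. A dimmer probe set of Akt1 rose by 0.57 (adjusted p = 0.0341), and dimmer ones of Akt2 rose by 0.69 (adjusted p = 0.0336) and 0.62 (adjusted p = 0.0179). These dimmer probe sets of Hnf4a, Akt1 and Akt2 stood at -0.087, 0.048, 0.021 and 0.41 under the RNA quality term. Irs2, an adaptor of the insulin receptor, stood at 0.48 (adjusted p = 0.0696) and Prkaa1, a catalytic subunit of AMP-activated kinase, at -0.21 (adjusted p = 0.09). Without S rat 2 Irs2 stood at 0.61 and passed (limma, adjusted p = 0.0368). With the RNA quality term it stood at 0.85 and did not pass (adjusted p = 0.527).

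Markers of the proximal tubule moved in both directions. Over all 14217 genes 2.12% were called higher and 2.67% lower. Of 12 measured early markers 5 rose and 1 fell, and their summed intensity ran from 89600 to 96200 in congenic rats and from 81600 to 88600 in S rats. The 5 that rose were Slc5a12 (log2 change 2.28), Slc4a4 (1.94), Slc5a2 (1.67), Slc22a8 (1.65) and Slc34a3 (1.53), transporters of lactate, bicarbonate, glucose, organic anions and phosphate, and all 5 also passed without S rat 2. With the RNA quality term they stood, in that order, at 1.33, 0.18, 0.60, 0.59 and 1.08. None of the 5 passed with that term (limma, adjusted p from 0.651 to 0.983). The urate transporter gene Slc22a12 fell by 0.43. S rat 2 was the lowest of all 6 rats in 8 of the 12. Of 9 late markers 1 rose and 2 fell, with sums of 61100 to 62400 in congenic rats and 62800 to 66100 in S rats. These counts are at the brightest probe set. Dimmer ones of the late marker Aqp1 (0.95) and the early Slc4a4 (0.56) and Slc22a8 (1.46) rose (limma, adjusted p = 0.0392, 0.0323 and 0.0373). With the RNA quality term they stood at -0.13, 0.14 and 0.91 and did not pass. Those of Slc5a12 (0.42) and Slc34a1 (0.34) did not pass. Lrp2, which encodes megalin, the uptake receptor of this segment, did not pass (log2 change -0.094) and was at 13.52, 13.51 and 13.53 in congenic rats and 13.60, 13.67 and 13.57 in S rats. The hepatocyte list was read because liver shares these genes. Of its 10 genes Fga and Fgb rose, while Alb was at 6.00, 6.76 and 5.70 in congenic rats and 5.87, 6.30 and 6.37 in S rats. Their summed intensity ran from 1500 to 1710 in congenic rats and from 1240 to 1330 in S rats.

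Markers of other cell types also moved with the strains or with S rat 2. Of 6 stromal genes 3 rose, Lum by 1.76, Dcn by 0.57 and Col1a1 by 0.44, and their summed intensity ran from 24300 to 26600 in congenic rats and from 18300 to 22800 in S rats, with no overlap. Of 6 leukocyte genes C1qb and Cd14 rose, with sums of 3290 to 3620 in congenic rats and 2860 to 3540 in S rats. None of 5 podocyte genes passed, and S rat 2 was the lowest of all 6 rats in 4 of them. Their sums ran from 4300 to 4630 in congenic rats and from 2500 to 5130 in S rats. Of 11 genes of the loop and distal segments Slc4a1 fell, and the sums were 62400 to 64100 in congenic rats and 51100 to 66200 in S rats. A dimmer Slc4a1 probe set went the opposite way, at 8.92 in congenic rats and 8.61 in S rats on average. Its log2 change was 0.31 (limma, adjusted p = 0.0842). Calb1, a calcium-binding protein of the distal tubule, was at 13.50, 13.52 and 13.46 in congenic rats and 13.51, 9.38 and 12.73 in S rats. S rat 2 thus stood far below every other rat for Calb1. Of 5 endothelial genes none passed, with sums of 7960 to 8420 in congenic rats and 7780 to 8480 in S rats. All these counts are at the brightest probe set, where 2.12% of all genes were called higher and 2.67% lower. Dimmer probe sets of Scnn1g (0.52), Synpo (0.58) and Ptprc (0.84) rose (limma, adjusted p = 0.0321, 0.03 and 0.00596). With the RNA quality term they stood at 0.18, 0.27 and 0.72 and did not pass. Another dimmer Synpo probe set stood at 0.15 (adjusted p = 0.407). The part of cell makeup in the values of Slc2a2, Pck1 and the other members was not tested.

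The genes whose values over the 6 arrays lay nearest to those of Slc2a2, after each was centred on its own mean, were Anxa3, Htra1 and Cyba. Their root mean square distances were 0.0095, 0.054 and 0.064 log2 units. Anxa3 was at 9.91, 9.68 and 9.89 in congenic rats and 9.50, 9.06 and 9.03 in S rats. For Pck1 the nearest were Lrmda, L3hypdh and Snapc5, at 0.030, 0.052 and 0.068 log2 units. Lrmda was at 8.78, 8.37 and 8.43 in congenic rats and 8.42, 7.75 and 8.12 in S rats. These are descriptions over 6 arrays that share the RNA quality gradient given above.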

How the data were processed

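The authors deposited log2 probe set intensities, 1 column per rat. What software made them is not given in the sources used here. Total RNA was labelled as biotinylated cRNA, per the labels. Of 31099 probe sets, 57 controls were left out. Symbols came from the platform annotation, updated to the RefSeq table of GRCr8 by gene identifier: 20826 probe sets had 1 symbol, of which 20758 matched, 436 had several and 9780 were not listed. Where a gene has several probe sets the brightest stood for it. Limma 3.58.1 in R 4.3.3 (lmFit, eBayes, two-sided, Benjamini-Hochberg over all 31042 probe sets, adjusted p under 0.05) compared congenic with S rats, with 8.49 total degrees of freedom. The method was tested on simulated data with independent noise, which held no RNA quality gradient and no outlying rat. That test therefore cannot tell how the calls behave where these are present.

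Members, lists, alternatives and the naming rule were chosen with earlier results of these data known. The rule names every member, Slc5a2, and in each surrounding list the called genes and the 2 uncalled genes of smallest p. It adds the 3 genes nearest in profile to the 2 members of widest range. Dimmer probe sets, Glyctk, Sord, Cs, Hnf4a, Akt1, Akt2, Pfkm and the marker genes (Lrp2, Alb and Calb1 among them) were named with their values in view. The alternatives tried on the values were median centring, quantile normalization, averaging a gene's probe sets and dropping probe sets below percentile 40 in mean intensity. Those tried on the model were array weights, an RNA quality term, the rat number as a block, each rat left out, a threshold of 0.10, and limma with robust eBayes, with an intensity trend or with no moderation. Array values have no read depth. The 3 rats per group limit the precision of each strain difference.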

Additional observations from a re-analysis of the deposited data

How the results depend on the processing

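Over all probe sets 1862 were called, 0 with the RNA quality term (2292 below an unadjusted p of 0.05), 0 in an unmoderated test (6166 below it), 658 with the rat number as a replicate block, 6077 with array weights, 4455 at a threshold of 0.10, and 0 to 4752 when 1 rat was left out. The 0 came without S rat 3 (6968 below an unadjusted p of 0.05) and without congenic rat 2 (5575). The 1 called member probe set became 0 with the RNA quality term (0 below an unadjusted p of 0.05), 0 in the unmoderated test (2 below it), 2 with an intensity trend, 4 with array weights and 0 to 5 when 1 rat was left out; the 5 came without S rat 1. The 12 called surrounding genes became 0 with the RNA quality term, 4 with the replicate block and 0 to 25 when 1 rat was left out. The cause of these shifts was not tested.

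Log2 changes that turned with the RNA quality term were those of Pck1 (-0.12), Fbp1 (-0.035), Gatm (-0.28) and Miox (0.03). With array weights Miox stood at 0.018 and the dimmer Gatm probe set at -0.034. Leaving out 1 rat gave -0.029 to 0.0033 for Miox, -0.033 to 0.079 for the dimmer Pck2 probe set, -0.0032 to 0.14 for the dimmer Gatm probe set and -0.0093 to 0.1 for the first shared probe set. Slc2a2 and Khk kept their direction under every alternative run. Fbp1, Khk and Pc passed with array weights. The congenic minus S difference of the 3′ minus 5′ value stayed negative throughout, from -0.78 to -0.51.

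The labels state that cages held 1 rat of each strain but do not say which rats shared one, so only the rat number was tested and cage pairs were not. Same-numbered rats did not deviate together (correlations -0.0143, -0.182 and -0.138), none correlated best with its own number (other matches ran from -0.247 to 0.384), and the block left the member count at 1.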
